A study of Mus musculus with 21 samples.

Results

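The serpins are a family of proteins that mostly inhibit serine and cysteine proteases. The members described here were the gene symbols made of Serpin, a clade letter from a to i and a number, with or without a closing letter, plus Serping1, that reached a mean of at least 0.2 TPM (an abundance corrected for transcript length and library size) over 21 testis libraries. This rule kept 36 of 63 serpin symbols, out of 55573 entries in the deposited table. Of the other 27 symbols, 4 were listed at 0 in each library, and another 5 symbols with a pseudogene suffix lay outside the naming rule. The members just inside the minimum were Serpina3m at 0.230 TPM and Serpinb1b at 0.278 TPM, and the symbols just outside it were Serpinb9d at 0.198 TPM and Serpinb10 at 0.167 TPM.

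The libraries were made from whole testes of C57BL6 mice and compared loss of Mageb4, with and without a heat shock. There were 5 Mageb4 knockout and 4 wild-type testes sampled 72 h after heat shock, and 6 Mageb4 knockout and 6 wild-type testes without heat shock. The sources used here do not name the knockout allele, the age of the mice, or how hot and how long the shock was. The labels call the samples of a group biological replicates, and name no litter, day or batch.

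A serpin traps its protease by offering a flexible reactive loop as bait: once the loop is cleaved, the serpin changes shape and holds the enzyme in an inactive complex. Clade A serpins are mostly secreted and many are made by the liver, clade B serpins act inside cells, and the other clades include regulators of clotting, fibrinolysis and complement. A few members inhibit nothing and serve as hormone carriers or as a collagen chaperone. In the testis, protease inhibitors are made in large part by somatic cells, among them Sertoli cells, which nurse the germ cells inside the tubules.

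Of the 36 members, 19 lay in a cluster of 28 clade A serpin genes on chromosome 12 (mm10, 103614786 to 104414329, GENCODE M21), and 6 of 16 clade B genes of a cluster on chromosome 13 (32842092 to 34002794) were members. The remaining members lay on chromosomes 1 (4 members), 11 (2 members), 2, 3, 5, 7 and X. Serpina3h is annotated as a transcribed pseudogene, and the annotated Serpina3m gene overlaps Serpina3k. The longest transcripts of 6 members, Serpina1a to Serpina1e and Serpina3h, aligned to another serpin gene at 90% identity or more over at least 50% of their length, so that reads of these genes may be split between copies and their values are uncertain. The identity of Serpina3m to Serpina3k was 89.9%, that of Serpina3g to Serpina3f was 88.5%, and that of Serpinb6b to Serpinb6c was 86.5%.

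The sequences upstream of 6 members are shown because the results below turn on them: Serpina5 and Serpina3a, which rose most in TPM; Serpina3f, Serpina3g and Serpina3i, close copies that share an element; and Serpinb6a, which was abundant throughout. Each is the 130 bases before the RefSeq transcription start on GRCm38.p6, written on the strand of the gene, at chr12:104100983-104101112, chr12:104112594-104112723, chr12:104214414-104214543, chr12:104236017-104236146 and chr12:104262992-104263121 on the plus strand and chr13:34002795-34002924 on the minus strand. Capitals mark matches, on either strand, to a STAT element (TTCNNNGAA), a pair of heat shock half-sites (GAANNTTC or TTCNNGAA), the core of an interferon-stimulated response element or a TATA box (TATAAA).
Serpina5: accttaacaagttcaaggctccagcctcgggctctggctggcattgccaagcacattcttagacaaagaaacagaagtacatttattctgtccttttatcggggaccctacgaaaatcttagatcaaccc
Serpina3a: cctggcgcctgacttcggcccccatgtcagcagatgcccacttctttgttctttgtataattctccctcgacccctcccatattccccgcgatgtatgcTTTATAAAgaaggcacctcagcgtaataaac
Serpina3f: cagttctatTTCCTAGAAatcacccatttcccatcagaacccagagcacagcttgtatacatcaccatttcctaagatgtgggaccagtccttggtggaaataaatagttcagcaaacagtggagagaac
Serpina3g: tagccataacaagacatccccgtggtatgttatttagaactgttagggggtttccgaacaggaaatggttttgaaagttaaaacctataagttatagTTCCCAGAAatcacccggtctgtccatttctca
Serpina3i: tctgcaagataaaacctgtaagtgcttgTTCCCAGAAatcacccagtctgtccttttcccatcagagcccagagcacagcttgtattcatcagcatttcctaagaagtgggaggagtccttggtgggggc
Serpinb6a: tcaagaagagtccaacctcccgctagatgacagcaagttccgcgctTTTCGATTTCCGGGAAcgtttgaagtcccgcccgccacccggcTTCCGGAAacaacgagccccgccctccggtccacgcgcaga
The STAT element begins 121 bases before the start in Serpina3f, 33 bases before it in Serpina3g and 102 bases before it in Serpina3i, where it reads TTCCCAGAA as in Serpina3g. These distances depend on the start used. The RefSeq start of Serpina3g lies upstream of its GENCODE gene start, at -98 bases, whereas those used for Serpina3f and Serpina3i match theirs. Serpina3a holds overlapping TATA matches on the 2 strands that begin 31 and 29 bases before the start. The capitals of Serpinb6a join an interferon-response core and a STAT element that overlap, followed by a heat shock pair. Windows of 250 bases were found for 29 of the 36 members, 33 windows in all, some of which overlap because a gene has more than 1 start. A STAT element stood in 7 of these 33 windows and in 7.02% of 32851 windows of all genes, and the heat shock pairs stood in 2 windows each, against 6.69% (GAANNTTC) and 7.17% (TTCNNGAA) of all windows. The interferon-response core stood in 2 windows (2.98% of all windows) and the TATA box in 8 (12.4%). The Serpinb6a window held 20 CpG, against a median of 6 over all windows. A match describes the letters and is not evidence of binding.

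Mageb4 stood at 0.09 to 0.15 TPM in heated knockout testes, against 7.82 to 8.26 TPM in heated wild-type testes, and at 0.01 to 0.11 TPM in unheated knockout testes, against 1.53 to 1.99 TPM in unheated wild-type testes, so that each library followed its genotype label. Each library had 17243 to 18547 genes at 1 TPM or more. The tissue label was checked against marker lists: the 23 Sertoli markers were each above the minimum, and the liver marker Alb was at 0.19 TPM or less in each library. Of 15 hepatocyte markers, 7 were tested, of which 3 rose and 1 fell in the heated knockout and 3 rose and 3 fell in heated wild type, where Ttr averaged 1.19 TPM, against 0.0367 TPM in unheated wild type, and Ahsg 2.37 TPM, against 0.187 TPM. The 15 summed to 82.0 to 102 TPM in heated knockout and 38.1 to 53.8 TPM in heated wild-type testes, against 87.5 to 102 TPM in unheated knockout and 91.8 to 102 TPM in unheated wild-type testes. Heat moved the makeup of the RNA in both genotypes. The 23 Sertoli markers summed to 8190 to 12210 TPM in heated knockout testes, against 2844 to 3762 TPM in unheated knockout testes, and to 19860 to 25020 TPM in heated wild-type testes, against 2266 to 2576 TPM in unheated wild-type testes. The 20 round spermatid markers went the other way, with 1678 to 2250 TPM in heated knockout and 809 to 1075 TPM in heated wild-type testes, against 4155 to 4321 TPM in unheated knockout and 4277 to 4444 TPM in unheated wild-type testes. The 20 elongating spermatid markers, the most abundant list, summed higher in heated knockout testes (91150 to 111000 TPM, against 61070 to 68550 TPM unheated) and lower in heated wild-type testes (42550 to 57400 TPM, against 59060 to 70560 TPM unheated). The sums of pachytene spermatocyte and spermatogonia markers were lower after heat in both genotypes, and those of peritubular and endothelial markers higher, without overlap, although 11 of the 15 spermatogonia markers tested rose in the knockout and 10 in wild type. In such bulk samples, fewer cells of a type and less RNA per cell cannot be told apart. Replicate 3 of heated wild type stood apart: 22 epididymal markers (the list without Defb19 and Eppin) summed to 3693 TPM there, against 6.17 to 22.1 TPM in the other 20 libraries. The markers left out were present in each library, Defb19 at 606 to 6730 TPM and Eppin at 46.7 to 386 TPM. With them the list summed to 10100 TPM in replicate 3, against 6027, 7093 and 6158 TPM in replicates 1, 2 and 4 of heated wild type. Values that rest on replicate 3 are given with and without it.

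Most of the 36 members were higher 72 h after heat shock in both genotypes, and by more in wild type. In the knockout, 28 of the 36 members rose after heat (limma, Benjamini-Hochberg adjusted p under 0.05 over the 24666 rows tested) and 3 fell, where 38.5% of all rows tested rose and 38.4% fell (76.9% in either direction). In wild type, 28 rose and 3 fell, where 45.4% of all rows rose and 42.9% fell (88.3% in either direction). The median log2 difference, on the log2(TPM + 1) scale, was 0.48 over the members and 0.016 over all rows in the knockout, and 1.03 over the members and 0.052 over all rows in wild type. Heated and unheated libraries did not overlap for 21 members that were higher and 1 that was lower in the heated knockout (30.2% and 32% of all rows), and for 28 that were higher and 2 that were lower in heated wild type (41.8% and 39.5%). At least 2-fold in mean TPM, 19 members rose and 2 fell in the knockout (19.4% and 20.8% of all rows), and 27 rose and 3 fell in wild type (34% and 33.4%). The rule itself favoured genes that are high in some group: 5 members, Serpina16, Serpina6, Serpina3f, Serpinb1b and Serpina3m, reached the minimum only through the heated libraries, and 2 symbols, Serpinb9d and Serpinb6d, reached it in the unheated libraries but not overall. Among the 31 members at the minimum without heat, 24 rose and 3 fell in the knockout and 23 rose and 3 fell in wild type. Without replicate 3 of heated wild type, 27 rose and 4 fell in wild type. These counts are descriptions of the members and not of all 63 serpin symbols. Scaling by the median of ratios shifted the median of all rows by -0.114 on the log2 scale in the wild-type heat comparison and that of an abundant gene by -0.143, and by less for low genes.

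Summed over the family, the serpins held 892 to 1185 TPM in heated knockout testes, against 427 to 501 TPM in unheated knockout testes. In heated wild-type testes the sum was 1891 to 2307 TPM, against 383 to 431 TPM in unheated wild-type testes, and the heated groups overlapped neither each other nor the unheated groups. The makeup of the sum changed as well. Serpinb6a held 19.6% ± 2.04 of the family TPM in heated knockout and 11.3% ± 0.71 in heated wild-type testes (SD, n = 5 and 4), against 42.2% ± 2.13 in unheated knockout and 48.5% ± 1.29 in unheated wild-type testes (n = 6 each). Serpina5 held 28.6% ± 1.94 and 32.7% ± 1.98 after heat in the knockout and wild type, against 18.1% ± 1.13 and 15.6% ± 0.6 without heat in the same genotypes. Without replicate 3 of heated wild type, the heated wild-type mean of the sum was 2047 TPM, against 2078 TPM with it.

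**Figure D1:**
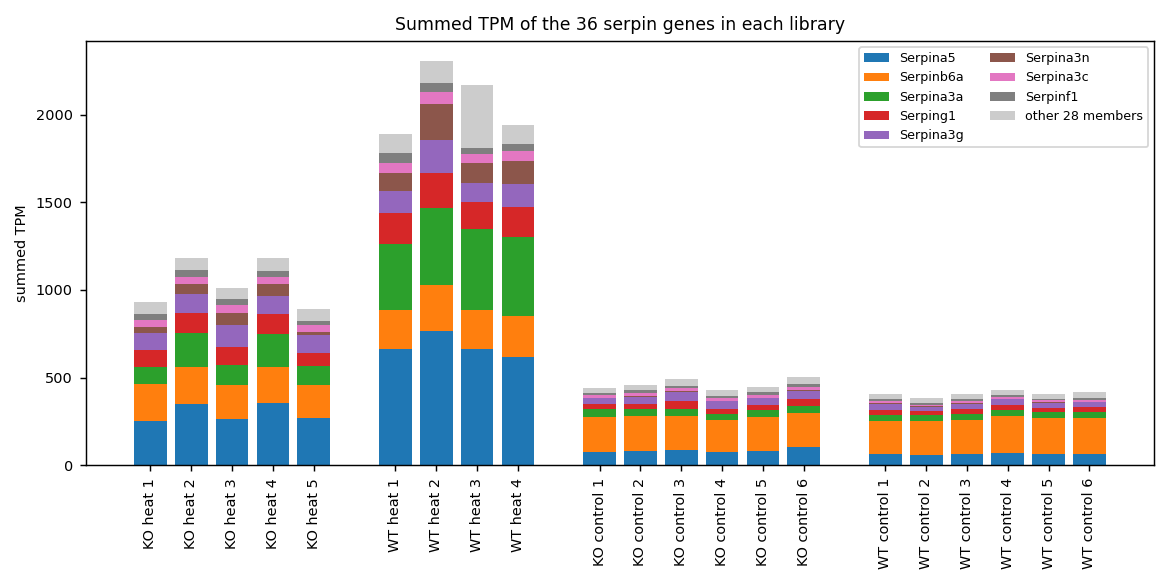
Summed TPM (y axis) of the 36 serpin genes in each of the 21 libraries (x axis), with the 8 most abundant members in colour and the other 28 in light grey. The 4 heated wild-type libraries reach 1891 to 2307 TPM and the 5 heated knockout libraries 892 to 1185 TPM, while the 12 unheated libraries lie between 383 and 501 TPM.

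Serpina5 encodes protein C inhibitor, which acts on activated protein C, urokinase and the sperm protease acrosin, and male mice that lack it are infertile. It was the most abundant member after heat. The heated knockout testes held 254, 349.5, 263, 354 and 271 TPM, against 75.1 to 101 TPM, with a median of 82 TPM, in unheated knockout testes. The heated wild-type testes held 665, 764, 663 and 618 TPM, against 56.3 to 70.7 TPM, with a median of 64.1 TPM, in unheated wild-type testes. Every heated library lay above every unheated one, and among the heated knockout testes replicates 2 and 4 were the highest. Serpina5 rose, in mean TPM and with log2 differences ± their moderated standard errors, 3.56-fold in the knockout (log2 difference 1.81 ± 0.09, adjusted p 4.79e-13) and 10.6-fold in wild type (log2 difference 3.39 ± 0.10, adjusted p 3.77e-17). Its level ran beside that of the Sertoli markers. Per 1000 TPM of the 23 markers, Serpina5 stood at 27.8 to 32.7 TPM in heated knockout and 30.5 to 31.4 TPM in heated wild-type testes, against 26.3 to 28.6 TPM in unheated knockout and 24.8 to 30.0 TPM in unheated wild-type testes. Over the 21 libraries its TPM spanned 13.6-fold from lowest to highest, whereas this ratio spanned 1.32-fold. Clu and Ctsl made up 32.9% and 23.6% of the marker sum, and with both left out, a choice made after seeing the data, the ratio spanned 1.55-fold and was highest in heated wild type at 73.4 to 79.5 TPM, against 51.3 to 63.3 TPM in unheated wild type. These are ratios of levels in the same libraries, and the part of the Sertoli share in the Serpina5 result was not tested.

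**Figure D2:**
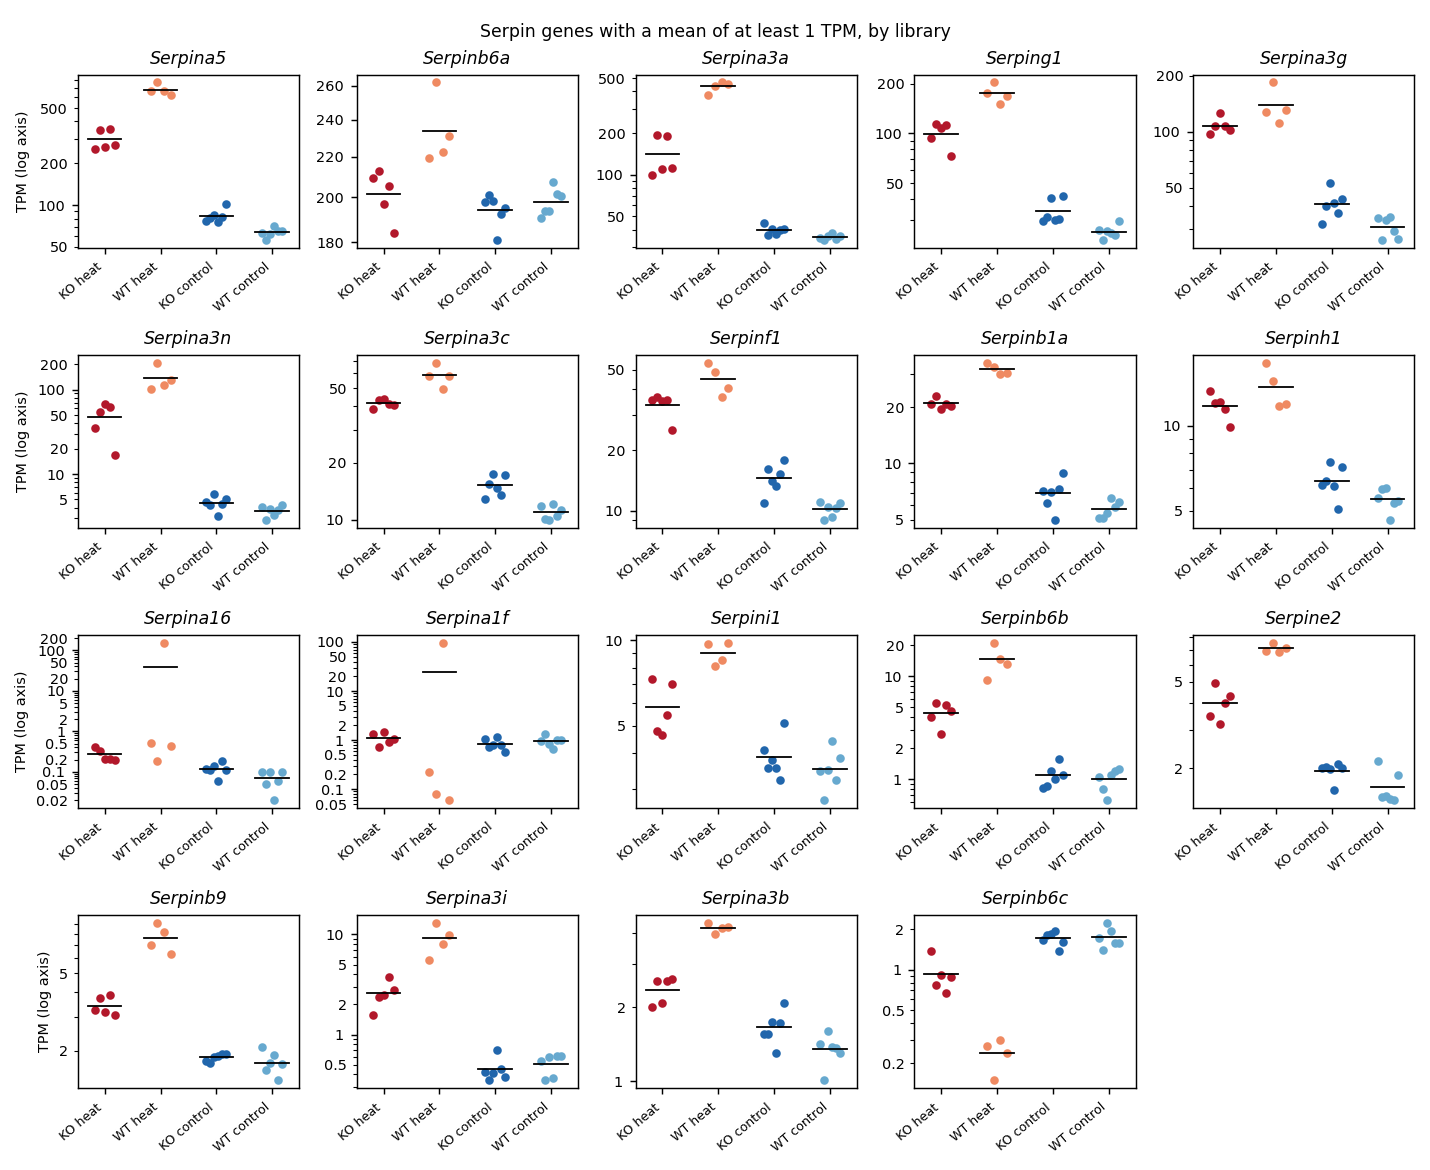
TPM (y axis, log scale, scaled per panel) of the 19 serpin genes whose mean reached 1 TPM, in heated knockout, heated wild-type, unheated knockout and unheated wild-type testes, with points for libraries and a line for the group mean. In most panels heated wild type is highest and heated knockout lies between it and the unheated groups, Serpinb6c runs the other way, Serpinb6a spans 181 to 262 TPM, and Serpina16 and Serpina1f each have 1 heated wild-type library far above the rest.

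The Serpina3 genes are a mouse expansion of the locus that in human holds the single gene for antichymotrypsin, an acute-phase inhibitor of chymotrypsin-like proteases. All 9 members of the group rose after heat in both genotypes, where 38.5% of all rows rose in the knockout and 45.4% in wild type. The log2 differences were 0.25 to 2.98 in the knockout and 0.55 to 4.84 in wild type. Serpina3f and Serpina3m reached the minimum only through the heated libraries, so that the rule itself favoured their rise. Serpina3n, an inhibitor of granzyme B and an acute-phase gene, had the largest log2 difference of the 36 members in both genotypes. The heated knockout testes held 35.6, 54.4, 67.8, 63 and 17 TPM, against 3.22 to 5.79 TPM, with a median of 4.54 TPM, in unheated knockout testes. The heated wild-type testes held 102, 209, 112 and 129.6 TPM, against 2.86 to 4.35 TPM, with a median of 3.81 TPM, in unheated wild-type testes. The heated knockout testes were widely spread, with replicate 5 far below the others, yet each lay above all unheated testes. Serpina3n rose 10.4-fold in the knockout (log2 difference 2.98 ± 0.26, adjusted p 1.08e-09) and 37.5-fold in wild type (log2 difference 4.84 ± 0.27, adjusted p 3.51e-13). Per 1000 TPM of Sertoli markers it stood at 2.06 to 7.18 TPM in heated knockout and 4.73 to 8.36 TPM in heated wild-type testes, against 1.13 to 1.97 TPM in unheated knockout and 1.26 to 1.69 TPM in unheated wild-type testes, so that the heated ratios lay above the unheated ones in both genotypes. The Serpina5 ratios of heated and unheated testes overlapped in the knockout and did not in wild type. For Serping1, Serpina3g, Serpina3c, Serpinf1, Serpinb1a and Serpinh1, the heated wild-type ratios lay below the unheated wild-type ones without overlap. Serpina3g stood at 5.28 to 7.35 TPM, against 10.3 to 14.8 TPM, and Serpinh1 at 0.555 to 0.776 TPM, against 1.97 to 2.64 TPM. Serpina3a went the other way there, also without overlap. In the knockout, Serpinh1 was again lower without overlap, and the ratios of Serpina3a and the others overlapped. The picture depended on the marker list. Per 1000 TPM of Leydig markers, heated and unheated wild-type ratios overlapped for Serpina3g (13.1 to 19.8 TPM, against 11.7 to 20.7 TPM), Serpina3c, Serpinf1 and Serpinb1a. Without overlap, Serping1 was higher in heated wild type and Serpinh1 lower. Per 1000 TPM of macrophage and leukocyte markers, Serping1 overlapped as well and Serpinh1 was again lower.

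Serpina3a was the third most abundant member. The heated knockout testes held 99.1, 194, 109, 189 and 111 TPM, against 36.9 to 44.7 TPM, with a median of 40.1 TPM, in unheated knockout testes. The heated wild-type testes held 378, 439.7, 465 and 456 TPM, against 33.9 to 37.7 TPM, with a median of 35.4 TPM, in unheated wild-type testes. Replicates 2 and 4 of the heated knockout stood well above the other heated knockout testes, as for Serpina5, and the same replicates had the highest Sertoli marker sums of that group, 11990 and 12210 TPM, against 8190, 9446 and 8287 TPM in replicates 1, 3 and 5. Serpina3a rose 3.52-fold in the knockout (log2 difference 1.73 ± 0.14, adjusted p 2.8e-10) and 12.3-fold in wild type (log2 difference 3.58 ± 0.15, adjusted p 1.84e-15).

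Serpina3g, which inhibits cathepsins inside lymphocytes and macrophages, held 97.6, 107, 125, 107 and 102 TPM in heated knockout testes, against 31.9 to 52.9 TPM, with a median of 40.9 TPM, in unheated knockout testes. It held 127, 184, 111 and 131 TPM in heated wild-type testes, against 26.4 to 35 TPM, with a median of 31.6 TPM, in unheated wild-type testes. The groups did not overlap in either genotype, and the gene rose 2.62-fold in the knockout (log2 difference 1.38 ± 0.12, adjusted p 2.08e-09) and 4.48-fold in wild type (log2 difference 2.11 ± 0.13, adjusted p 1.96e-12). Means below are given ± SD, over 5 heated and 6 unheated knockout and 4 heated and 6 unheated wild-type testes. Serpina3c averaged 41.5 ± 2.02 TPM in heated and 15.2 ± 1.9 TPM in unheated knockout testes, a 2.73-fold rise (log2 difference 1.40 ± 0.08, adjusted p 3.74e-12), and 58.4 ± 7.65 TPM in heated and 10.9 ± 0.911 TPM in unheated wild-type testes, a 5.34-fold rise (log2 difference 2.31 ± 0.09, adjusted p 7.82e-16). Serpina3i was near the minimum without heat. It averaged 2.6 ± 0.798 TPM in heated and 0.453 ± 0.13 TPM in unheated knockout testes, a 5.74-fold rise (log2 difference 1.29 ± 0.15, adjusted p 1.41e-07), and 9.14 ± 3.16 TPM in heated and 0.513 ± 0.122 TPM in unheated wild-type testes, a 17.8-fold rise (log2 difference 2.69 ± 0.16, adjusted p 1.08e-12). Serpina3b rose 1.42-fold in the knockout, where heated and unheated testes overlapped (log2 difference 0.34 ± 0.08, adjusted p 0.000444), and 3.11-fold in wild type, where they did not (log2 difference 1.15 ± 0.08, adjusted p 1.72e-11). Its means were 2.35 ± 0.288 TPM in heated and 1.66 ± 0.257 TPM in unheated knockout testes, and 4.19 ± 0.173 TPM in heated and 1.35 ± 0.193 TPM in unheated wild-type testes. The 3 remaining genes of the group averaged under 1 TPM over the libraries. The pseudogene Serpina3h averaged 1.14 and 1.89 TPM in heated knockout and wild-type testes, against 0.39 and 0.37 TPM in unheated knockout and wild-type testes. In the same order, Serpina3f averaged 0.446 and 0.682 TPM, against 0.227 and 0.148 TPM, and Serpina3m averaged 0.286 and 0.748 TPM, against 0.0417 and 0.025 TPM.

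**Figure D3:**
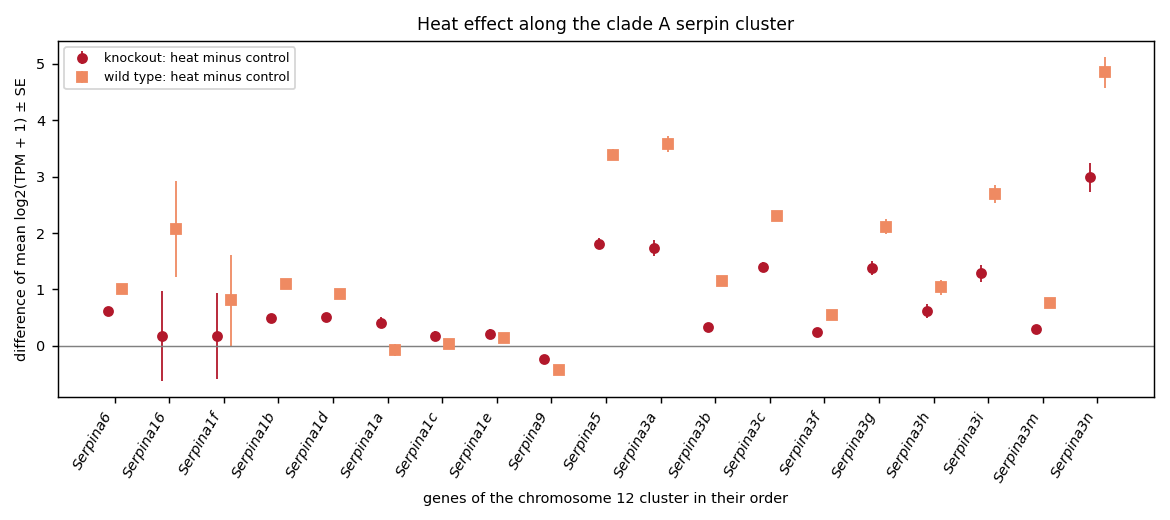
Heat effect along the clade A serpin cluster of chromosome 12: difference of mean log2(TPM + 1) between heated and unheated testes (y axis) with its standard error, for the 19 members in their genomic order (x axis), in the knockout (circles) and wild type (squares). The values from Serpina5 to Serpina3n are positive in both genotypes, with wild type above the knockout, while Serpina9 is negative in both and Serpina1a, Serpina1c and Serpina1e lie near 0 in wild type.

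At the other end of that cluster the responses were mixed. Serpina1a to Serpina1e are mouse copies of the gene for alpha-1-antitrypsin, the inhibitor of neutrophil elastase in plasma. Each of the 5 passed the test in the knockout, with rises of 0.18 to 0.51 on the log2 scale, whereas 2 of them, Serpina1b and Serpina1d, rose in wild type. Of all rows, 38.5% rose in the knockout and 45.4% in wild type. Serpina1b averaged 1.05 and 1.99 TPM in heated knockout and wild-type testes, against 0.467 and 0.398 TPM in unheated knockout and wild-type testes. In the same order, Serpina1d averaged 0.86 and 1.38 TPM, against 0.305 and 0.262 TPM. Serpina1a averaged 1.26 and 0.802 TPM after heat, against 0.697 and 0.902 TPM without it. Its heat effect was the larger in the knockout (log2 difference 0.41 ± 0.09, adjusted p 0.000478) and was not called in wild type (log2 difference -0.07 ± 0.10, adjusted p 0.492), and the 2 effects differed (difference 0.49 ± 0.14, adjusted p 0.00358). Serpina1c averaged 0.43 and 0.282 TPM after heat, against 0.255 and 0.245 TPM without it, and Serpina1e 1.21 and 1.01 TPM, against 0.922 and 0.837 TPM. The knockout call of Serpina1c was lost on leaving out replicate 1, 3 or 5 of the heated knockout, 1, 2, 4 or 6 of the unheated knockout or 5 of unheated wild type (adjusted p 0.0503 to 0.165; 0.011 to 0.165 over all alternatives). That of Serpina1e was lost without replicate 1, 2 or 5 of the heated or 1 or 3 of the unheated knockout (adjusted p 0.0555 to 0.0831; 0.0157 to 0.0831 over all alternatives). Because these copies are nearly identical, the split of their values is uncertain.

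The hormone carriers differed in direction. Serpina6, corticosteroid-binding globulin, averaged 0.808 ± 0.0497 TPM in heated and 0.175 ± 0.086 TPM in unheated knockout testes, and 1.24 ± 0.329 TPM in heated and 0.105 ± 0.0432 TPM in unheated wild-type testes. It rose in the knockout (log2 difference 0.62 ± 0.07, adjusted p 5.17e-08) and in wild type (log2 difference 1.01 ± 0.07, adjusted p 2.77e-11), with no overlap in either. Serpina6 reached the minimum only through the heated libraries (mean 1.00 TPM, against 0.14 TPM unheated), so that the rule itself favoured its rise. Serpina7, thyroxine-binding globulin, averaged 0.26 ± 0.121 TPM in heated and 0.55 ± 0.335 TPM in unheated knockout testes (log2 difference -0.28 ± 0.12, adjusted p 0.0422), and 0.312 ± 0.211 TPM in heated and 0.372 ± 0.0744 TPM in unheated wild-type testes (log2 difference -0.08 ± 0.13, adjusted p 0.58). The knockout call of Serpina7 was lost without replicate 2 or 5 of the heated or 1, 2 or 4 of the unheated knockout (adjusted p 0.0615 to 0.116; 0.0151 to 0.116 over all alternatives). Serpina9, known in human from germinal centre B cells, fell in both genotypes with no overlap. It averaged 0.174 ± 0.023 TPM in heated and 0.382 ± 0.106 TPM in unheated knockout testes (log2 difference -0.23 ± 0.06, adjusted p 0.00129), and 0.0975 ± 0.0359 TPM in heated and 0.472 ± 0.116 TPM in unheated wild-type testes (log2 difference -0.42 ± 0.06, adjusted p 2.31e-06). At these low levels the counting error is unknown, since TPM keeps no depth.

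Serpina16 and Serpina1f turned on 1 library. Serpina16 held 0.51, 0.19, 154 and 0.44 TPM in heated wild-type testes, against 0.02 to 0.1 TPM, with a median of 0.08 TPM, in unheated wild-type testes. Serpina1f held 0.22, 0.08, 96.7 and 0.06 TPM in heated wild-type testes, against 0.65 to 1.35 TPM, with a median of 0.965 TPM, in unheated wild-type testes. In both, replicate 3 was the library far above the others. In the knockout, Serpina16 held 0.4, 0.33, 0.21, 0.21 and 0.2 TPM after heat, against 0.06 to 0.18 TPM, with a median of 0.115 TPM, without it, and Serpina1f held 1.33, 0.74, 1.45, 0.92 and 1.07 TPM after heat, against 0.58 to 1.15 TPM, with a median of 0.8 TPM, without it. Heated and unheated knockout libraries did not overlap for Serpina16, which was not called there (log2 difference 0.18 ± 0.80, adjusted p 0.848) with 1 spread shared by all groups. With only the knockout groups fitted, it was called (adjusted p 0.00586). With all libraries, Serpina16 was called higher in heated wild type (log2 difference 2.06 ± 0.85, adjusted p 0.0283), and not with only the wild-type groups fitted (adjusted p 0.123). Without replicate 3 its mean over the remaining 20 libraries was 0.182 TPM, under the minimum, so that it was not a member and was not tested, and heated wild type averaged 0.38 TPM, against 0.0717 TPM in unheated wild type. Serpina1f was not called with all libraries (log2 difference 0.81 ± 0.81, adjusted p 0.348), but without replicate 3 it fell to 0.12 ± 0.0872 TPM in heated wild-type testes (SD, n = 3), against 0.963 ± 0.231 TPM in unheated wild-type testes (n = 6), a log2 difference of -0.80 with a limma adjusted p of 2.02e-06. Of 24 epididymal marker rows, 11 were at 1 TPM or more in replicate 3 and at least 5 times higher there than in any other library (12 without the 1 TPM minimum). The epididymal gene Crisp1 was at 2126 TPM in replicate 3, 3.81 TPM in replicate 2 of unheated wild type and 0.62 TPM or less in the other libraries. The part of this epididymal signal in the Serpina16 and Serpina1f values was not tested.

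**Figure D4:**
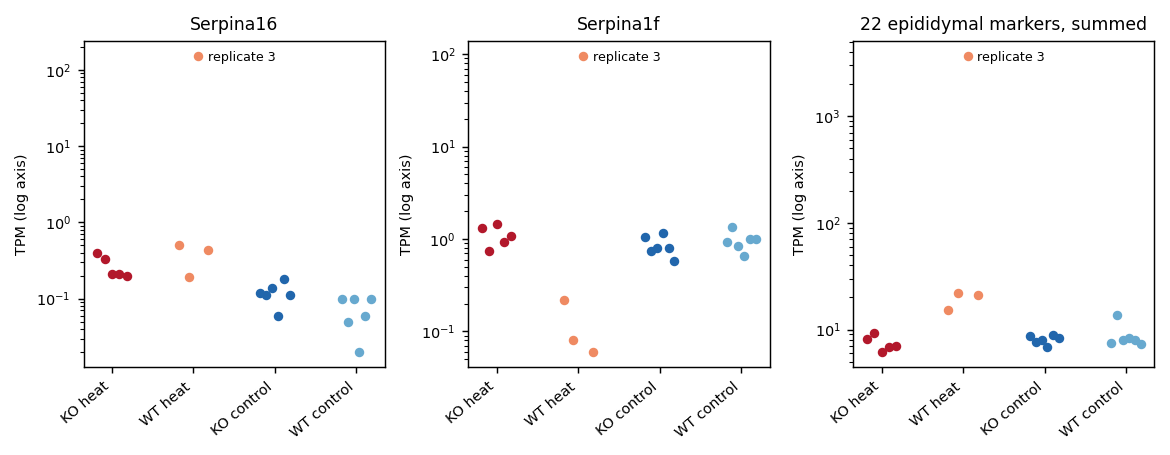
TPM (y axes, log scale) of Serpina16, Serpina1f and the sum of 22 epididymal markers in heated knockout, heated wild-type, unheated knockout and unheated wild-type testes, 1 point per library. Replicate 3 of heated wild type, which is named in each panel, lies at 154 TPM, 96.7 TPM and 3693 TPM and far above the other 20 libraries.

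Regulators of complement, the matrix and fibrinolysis rose in both genotypes, except Serpinc1. Serping1 encodes C1 inhibitor, which blocks the first proteases of the classical complement pathway. The heated knockout testes held 93.3, 114, 107, 112 and 72.9 TPM, against 29.6 to 41.9 TPM, with a median of 30.6 TPM, in unheated knockout testes. The heated wild-type testes held 176, 203, 151 and 168 TPM, against 22.7 to 29.3 TPM, with a median of 25.3 TPM, in unheated wild-type testes. There was no overlap, replicate 5 was the lowest of the heated knockout, and the gene rose 2.95-fold in the knockout (log2 difference 1.53 ± 0.12, adjusted p 1.6e-10) and 6.85-fold in wild type (log2 difference 2.73 ± 0.12, adjusted p 9.93e-15). Serpinf1, pigment epithelium-derived factor, averaged 33.5 ± 4.71 TPM in heated and 14.6 ± 2.43 TPM in unheated knockout testes, a 2.3-fold rise (log2 difference 1.15 ± 0.12, adjusted p 1.45e-08), and 45.1 ± 7.92 TPM in heated and 10.2 ± 0.826 TPM in unheated wild-type testes, a 4.43-fold rise (log2 difference 2.03 ± 0.12, adjusted p 1.48e-12). Serpinh1, the collagen chaperone Hsp47, is itself a heat shock gene. It rose 1.84-fold in the knockout, with 11.8 ± 1.21 TPM in heated and 6.39 ± 0.838 TPM in unheated testes (log2 difference 0.79 ± 0.10, adjusted p 2.05e-07), and 2.5-fold in wild type, with 13.7 ± 2.36 TPM in heated and 5.48 ± 0.506 TPM in unheated testes (log2 difference 1.17 ± 0.10, adjusted p 5.74e-10).

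Serpine2, protease nexin 1, averaged 3.98 ± 0.688 TPM in heated and 1.96 ± 0.178 TPM in unheated knockout testes (log2 difference 0.74 ± 0.09, adjusted p 9.7e-08), and 7.13 ± 0.321 TPM in heated and 1.65 ± 0.298 TPM in unheated wild-type testes (log2 difference 1.63 ± 0.09, adjusted p 3.47e-13). It rose without overlap in either genotype. Serpinf2, alpha-2-antiplasmin, averaged 1.42 ± 0.215 TPM in heated and 0.635 ± 0.174 TPM in unheated knockout testes (log2 difference 0.56 ± 0.08, adjusted p 1.12e-06), and 1.66 ± 0.242 TPM in heated and 0.508 ± 0.0682 TPM in unheated wild-type testes (log2 difference 0.81 ± 0.08, adjusted p 7.02e-09). Serpini1, neuroserpin, an inhibitor of tissue plasminogen activator, averaged 5.83 ± 1.24 TPM in heated and 3.89 ± 0.664 TPM in unheated knockout testes (log2 difference 0.47 ± 0.12, adjusted p 0.00088), and 9.04 ± 0.837 TPM in heated and 3.54 ± 0.575 TPM in unheated wild-type testes (log2 difference 1.15 ± 0.12, adjusted p 1.5e-08). Heated and unheated knockout testes overlapped for Serpini1. Serpinc1, antithrombin, was the clotting inhibitor that did not rise. It averaged 0.386 ± 0.106 TPM in heated and 0.362 ± 0.117 TPM in unheated knockout testes (log2 difference 0.03 ± 0.08, adjusted p 0.776), and fell to 0.223 ± 0.175 TPM in heated wild-type testes, against 0.502 ± 0.114 TPM in unheated wild-type testes (log2 difference -0.30 ± 0.09, adjusted p 0.003), a call that was lost with quantile normalization (adjusted p 0.153; 0.000203 to 0.153 over all alternatives).

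Among the clade B genes, which protect cells from proteases released inside them, the Serpinb6 genes went 3 ways. Serpinb6a, an inhibitor of cathepsin G, was the most abundant member without heat. It held 209, 213, 197, 205 and 184 TPM in heated knockout testes, against 181 to 201 TPM, with a median of 196 TPM, in unheated knockout testes. It held 219, 262, 223 and 231 TPM in heated wild-type testes, against 191 to 207 TPM, with a median of 197 TPM, in unheated wild-type testes. The knockout groups overlapped (log2 difference 0.05 ± 0.05, adjusted p 0.333), while the wild-type groups did not and differed 1.18-fold (log2 difference 0.23 ± 0.05, adjusted p 0.000245). With scaling by the median of ratios the wild-type difference was 0.09 and was not called (adjusted p 0.138; 9.43e-11 to 0.138 over all alternatives). Per 1000 TPM of Sertoli markers Serpinb6a stood at 16.8 to 25.6 TPM in heated knockout and 10.2 to 11.6 TPM in heated wild-type testes, against 51.8 to 67.4 TPM in unheated knockout and 77.7 to 87.8 TPM in unheated wild-type testes.

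Serpinb6b, an inhibitor of granzyme A, rose 4.04-fold in the knockout and 14.4-fold in wild type. It held 4.07, 5.55, 2.74, 5.26 and 4.6 TPM in heated knockout testes, against 0.82 to 1.59 TPM, with a median of 1.05 TPM, in unheated knockout testes (log2 difference 1.36 ± 0.16, adjusted p 1.67e-07). It held 9.21, 21.1, 14.7 and 13.2 TPM in heated wild-type testes, against 0.63 to 1.25 TPM, with a median of 1.08 TPM, in unheated wild-type testes (log2 difference 2.90 ± 0.17, adjusted p 9.18e-13). Serpinb6c, its nearest copy, fell in both genotypes. It held 1.37, 0.77, 0.91, 0.67 and 0.88 TPM in heated knockout testes, against 1.37 to 1.95 TPM, with a median of 1.73 TPM, in unheated knockout testes, 1.86-fold lower (log2 difference -0.50 ± 0.09, adjusted p 2.28e-05). It held 0.27, 0.15, 0.3 and 0.24 TPM in heated wild-type testes, against 1.41 to 2.23 TPM, with a median of 1.66 TPM, in unheated wild-type testes, 7.28-fold lower (log2 difference -1.14 ± 0.09, adjusted p 1.63e-10). Replicate 1 of the heated knockout met the lowest unheated knockout value, while the wild-type groups were far apart. Among the symbols under the minimum, Serpinb9d also had lower values after heat, with 0.05 to 0.12 TPM in heated and 0.19 to 0.39 TPM in unheated knockout testes, and 0 to 0.04 TPM in heated and 0.22 to 0.47 TPM in unheated wild-type testes. It and Serpinb10 were the 2 symbols under the minimum with the highest means.

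Serpinb1a inhibits neutrophil elastase and cathepsin G. It averaged 20.9 ± 1.27 TPM in heated and 6.93 ± 1.31 TPM in unheated knockout testes, a 3.02-fold rise (log2 difference 1.48 ± 0.10, adjusted p 1.11e-11), and 31.9 ± 2.14 TPM in heated and 5.74 ± 0.6 TPM in unheated wild-type testes, a 5.56-fold rise (log2 difference 2.29 ± 0.10, adjusted p 5.93e-15). Serpinb9, the inhibitor that guards cells against granzyme B, averaged 3.41 ± 0.357 TPM in heated and 1.85 ± 0.0785 TPM in unheated knockout testes (log2 difference 0.63 ± 0.08, adjusted p 3.76e-07), and 7.64 ± 1.24 TPM in heated and 1.74 ± 0.239 TPM in unheated wild-type testes (log2 difference 1.65 ± 0.09, adjusted p 7.34e-14). Neither gene's groups overlapped. The other 3 clade B members averaged under 1 TPM. Serpinb2, plasminogen activator inhibitor 2, averaged 0.472 and 0.713 TPM in heated knockout and wild-type testes, against 0.227 and 0.232 TPM in unheated knockout and wild-type testes, and rose in both genotypes. In the same order, Serpinb8 averaged 0.574 and 0.99 TPM, against 0.362 and 0.195 TPM, and rose in wild type (log2 difference 0.72 ± 0.14, adjusted p 5.85e-05) but was not called in the knockout (log2 difference 0.22 ± 0.13, adjusted p 0.137). Serpinb1b averaged 0.366 and 0.565 TPM, against 0.165 and 0.125 TPM, and rose in both, though its knockout call was lost without replicate 4 of the heated knockout (adjusted p 0.0509; 0.00354 to 0.0509 over all alternatives). Serpinb1b also reached the minimum only through the heated libraries.

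The cell markers that could accompany these genes moved with heat as well. All 14 Leydig markers rose in both genotypes, summing to 6027 to 7612 TPM in heated and 2138 to 3079 TPM in unheated knockout testes, and to 7227 to 9699 TPM in heated and 1635 to 2275 TPM in unheated wild-type testes. Of 23 macrophage and leukocyte markers, 18 were tested and 17 rose in each genotype, and the 23 summed to 331 to 477 TPM in heated and 129 to 231 TPM in unheated knockout testes, and to 606 to 841 TPM in heated and 105 to 144 TPM in unheated wild-type testes. The part of these cell types in the serpin results was not tested.

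Without heat the genotypes were close. Of the 36 members, 1 was called higher in knockout than in wild-type testes and none lower, where 0.519% of all rows were called higher and 0.0568% lower; at an unadjusted p under 0.05 the counts were 7 higher and 0 lower, where 12% of all rows were higher and 2.3% lower. The groups did not overlap for 3 members that were higher in the knockout, Serpina5, Serping1 and Serpina3c (3.41% of all rows), and for 0 that were lower (0.539% of all rows). Serpina3c held 12.8 to 17.5 TPM, with a median of 15.1 TPM, in unheated knockout testes, against 9.95 to 12.1 TPM, with a median of 10.9 TPM, in unheated wild-type testes. The difference was 1.39-fold (log2 difference 0.44 ± 0.08, adjusted p 0.02, limma), and the call was lost without replicate 6 of the unheated knockout or replicate 2, 3 or 5 of unheated wild type or with quantile normalization (adjusted p 0.0509 to 0.0658 without these replicates, 0.0131 to 0.0658 over all alternatives). Serpina5 had 75.1 to 101 TPM, with a median of 82 TPM, in unheated knockout testes, against 56.3 to 70.7 TPM, with a median of 64.1 TPM, in unheated wild-type testes, and just missed the threshold (log2 difference 0.38 ± 0.09, adjusted p 0.051; 0.0194 to 0.145 over all alternatives). It was called on leaving out any heated knockout replicate, replicate 2 of heated wild type or replicate 4 of unheated wild type (adjusted p 0.0335 to 0.0493). Serping1 had 29.6 to 41.9 TPM, with a median of 30.6 TPM, in unheated knockout testes, against 22.7 to 29.3 TPM, with a median of 25.3 TPM, in unheated wild-type testes, and was not called (log2 difference 0.39 ± 0.11, adjusted p 0.0959). The Sertoli markers also summed higher in unheated knockout testes, with no overlap, at 2844 to 3762 TPM, against 2266 to 2576 TPM in unheated wild-type testes. Other inhibitors of Sertoli cells, the cystatins Cst12 and Cst9, were called higher in unheated knockout testes: Cst12 averaged 297 TPM in knockout and 229 TPM in wild-type testes (log2 difference 0.38 ± 0.07, adjusted p 0.0179), and Cst9 378 TPM in knockout and 304 TPM in wild-type testes (0.31 ± 0.07, adjusted p 0.0405).

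After heat the knockout had lower levels of most serpins than wild type. In the heated knockout, 24 members were called lower and 2 higher, where 44.8% of all rows were called lower and 30.5% higher (75.4% in either direction). The median log2 difference was -0.40 over the members and -0.135 over all rows. Heated knockout and heated wild-type libraries did not overlap for 20 members that were lower and 1 that was higher in the knockout (37.3% and 26.3% of all rows). In TPM, Serpina3a was 3.09-fold lower in the heated knockout (log2 difference -1.68 ± 0.15, adjusted p 4.47e-09), Serpinb6b 3.27-fold lower (log2 difference -1.49 ± 0.18, adjusted p 2.69e-07) and Serpina3i 3.51-fold lower (log2 difference -1.47 ± 0.17, adjusted p 1.31e-07). Serpina3n was 2.91-fold lower (log2 difference -1.61 ± 0.28, adjusted p 3.23e-05), Serpina5 2.27-fold lower (log2 difference -1.19 ± 0.10, adjusted p 2.44e-09) and Serpinb9 2.24-fold lower (log2 difference -0.96 ± 0.09, adjusted p 5.77e-09). These 6 did not overlap between the genotypes. Smaller differences were found for Serping1 (log2 difference -0.81 ± 0.13, adjusted p 9.03e-06), Serpine2 (log2 difference -0.72 ± 0.10, adjusted p 9.14e-07), Serpina3b (log2 difference -0.63 ± 0.09, adjusted p 9.86e-07), Serpinb1a (log2 difference -0.59 ± 0.10, adjusted p 3.65e-05) and Serpini1 (log2 difference -0.57 ± 0.13, adjusted p 0.000411). They were smaller still for Serpina3c (log2 difference -0.48 ± 0.09, adjusted p 8.73e-05), Serpinf1 (log2 difference -0.41 ± 0.13, adjusted p 0.00695) and Serpinb6a (log2 difference -0.21 ± 0.05, adjusted p 0.00137), whose call was lost with scaling by the median of ratios (adjusted p 0.0518; 5.54e-06 to 0.0518 over all alternatives). Serpina3g overlapped between the genotypes (log2 difference -0.34 ± 0.14, adjusted p 0.0316), and its call was lost without replicate 1 or 5 of the heated knockout or replicate 2 of heated wild type, with no filter, with scaling by the median of ratios and with the replicate block (adjusted p 0.0591 to 0.184 without these replicates; 0.0102 to 0.184 over all alternatives). Serpinh1 was not called (log2 difference -0.20 ± 0.11, adjusted p 0.0963).

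Of the 17 members under 1 TPM, 9 were called lower in the heated knockout, of which 8 are given here. Of all rows 44.8% were called lower, and of rows at 1 TPM or more 48.8%. The share among rows under 1 TPM alone was not taken. It must lie under 44.8%, because that of the rows at 1 TPM or more lies above it, so neither share printed is a like one. The log2 differences were -0.54 ± 0.09 for Serpina1b, -0.44 ± 0.08 for Serpina3m, -0.40 ± 0.13 for Serpina3h, -0.35 ± 0.07 for Serpina1d, -0.33 ± 0.14 for Serpinb8, -0.30 ± 0.08 for Serpina6, -0.22 ± 0.07 for Serpinb2 and -0.22 ± 0.08 for Serpina3f. Of these, Serpinb8 lost its call without replicate 1, 3 or 5 of the heated knockout or 2 or 4 of heated wild type (adjusted p 0.0812 to 0.193; 0.00788 to 0.193 over all alternatives). Serpina3f lost its call without replicate 1 or 2 of heated wild type (adjusted p 0.0532 to 0.0637; 0.000654 to 0.0873 over all alternatives), and Serpina3h without replicate 2 of heated wild type (adjusted p 0.0694; 0.000947 to 0.0694 over all alternatives). The 2 members called higher in the heated knockout were Serpinb6c, at 3.83-fold with no overlap (log2 difference 0.62 ± 0.10, adjusted p 6.52e-06), and Serpina1a (log2 difference 0.32 ± 0.10, adjusted p 0.00847), whose call was lost with quantile normalization (adjusted p 0.158; 0.00236 to 0.158 over all alternatives). Serpina1f was not called with all libraries (log2 difference -0.71 ± 0.84, adjusted p 0.451) and was higher in the heated knockout without replicate 3 of heated wild type (log2 difference 0.90, adjusted p 1.53e-06).

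The heat effects themselves were compared by their difference, knockout minus wild type, which shares all its libraries with the comparisons above. It was negative and called for 25 members and positive and called for 3, where 42.7% and 28.8% of all rows were called. The median difference was -0.49 over the members and -0.158 over all rows. As an estimate, the heat effect was smaller in the knockout for all 25 members that rose in both genotypes. The share of all rows was not counted for this, so whether 25 of 25 is unusual cannot be told. Among the 23 Sertoli markers, which all rose in both genotypes, the difference was negative and called for 22. The 25 members that rose in both are not the same 25 members as those called. The difference was not called for Serpinf2 (limma adjusted p 0.056) and Serpinb1b (limma adjusted p 0.0706), which rose in both. The difference was -1.86 ± 0.38 for Serpina3n (adjusted p 0.00017), -1.84 ± 0.20 for Serpina3a (adjusted p 9.65e-08), -1.57 ± 0.14 for Serpina5 (adjusted p 5.81e-09) and -1.55 ± 0.24 for Serpinb6b (adjusted p 7.96e-06). At the small end it was -0.38 ± 0.14 for Serpinh1 (adjusted p 0.0191), a call lost without replicate 1 of heated wild type (adjusted p 0.0613), with scaling by the median of ratios and with quantile normalization (adjusted p 0.00637 to 0.161 over all alternatives). It was -0.18 ± 0.07 for Serpinb6a (adjusted p 0.0259), a call lost without replicate 5 of the heated knockout or 2 of heated wild type (adjusted p 0.0542 to 0.0758) and with scaling by the median of ratios (-0.08, adjusted p 0.364; 0.000273 to 0.364 over all alternatives). The difference was positive for Serpinb6c at 0.64 ± 0.13 (adjusted p 0.00014), which fell by less in the knockout. It was also positive for Serpina1a, given above, and for Serpinc1 at 0.33 ± 0.12 (adjusted p 0.0188; 0.00211 to 0.172 over all alternatives), a call lost without replicate 3 of heated wild type (adjusted p 0.0551).

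Genes that work with the serpins were counted in 9 lists. Of 20 tested genes of plasminogen activation and thrombin signalling, 16 rose and 3 fell in the heated knockout and 15 rose and 5 fell in heated wild type. Plau, the urokinase that Serpina5 and Serpine2 inhibit, averaged 10.3 TPM in heated and 0.958 TPM in unheated wild-type testes (log2 difference 2.52 ± 0.10, adjusted p 1.17e-15). S100a10, which binds plasminogen at cell surfaces, averaged 68.1 TPM in heated and 17.4 TPM in unheated knockout testes (1.90 ± 0.12, adjusted p 1.63e-11). The thrombin receptor gene F2r rose 7.11-fold in wild type and Plgrkt, a plasminogen receptor gene, 3.02-fold in the knockout. Of 23 complement genes, the setting of Serping1, 17 rose and 4 fell in the knockout and 18 rose and 3 fell in wild type. Cd59a, a membrane regulator of the terminal pathway, averaged 40.1 TPM in heated and 19.0 TPM in unheated knockout testes (1.03 ± 0.07, adjusted p 4.43e-11), and 74.6 TPM in heated and 17.0 TPM in unheated wild-type testes (2.07 ± 0.08, adjusted p 5.35e-16). Clu, an inhibitor of the terminal pathway, rose 3.22-fold in the knockout and 8.66-fold in wild type.

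A list of 25 leukocyte, lysosomal and apoptotic proteases includes targets of several clade A and B serpins but is wider than these. Of its 14 tested genes, 12 rose and 1 fell in the knockout and 11 rose and 1 fell in wild type. Ctsd is not of the serine and cysteine classes that serpins mostly inhibit. Ctsd, a lysosomal aspartic protease, averaged 222 TPM in heated and 72.1 TPM in unheated knockout testes (1.59 ± 0.10, adjusted p 1.41e-11), and 475 TPM in heated and 58.6 TPM in unheated wild-type testes (2.99 ± 0.11, adjusted p 4.45e-16). Casp8, an apoptotic caspase, rose 4.38-fold in the knockout and 12.6-fold in wild type. Of 30 collagens and collagen-folding genes, the clients and partners of Serpinh1, 26 rose and 3 fell in each genotype. P4ha1, a prolyl hydroxylase of collagen, averaged 30.5 TPM in heated and 11.1 TPM in unheated knockout testes (1.38 ± 0.06, adjusted p 4.82e-14), and 51.9 TPM in heated wild-type testes, 5.77-fold the level of unheated wild-type testes (2.40 ± 0.06, adjusted p 1.65e-17). Colgalt1, a collagen glycosyltransferase, rose 2.9-fold in the knockout and Fkbp14, a collagen-folding isomerase, 10.3-fold in wild type. Of 28 other protease inhibitors, 16 rose and 5 fell in the knockout and 19 rose and 7 fell in wild type. Cst12, a cystatin of Sertoli cells, averaged 1022 TPM in heated and 297 TPM in unheated knockout testes (1.78 ± 0.07, adjusted p 1.27e-14), and 1934 TPM in heated and 229 TPM in unheated wild-type testes (3.08 ± 0.07, adjusted p 6.66e-18). Cst9, another cystatin, rose 2.75-fold in the knockout and 6.28-fold in wild type.

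Signalling lists that include known inducers of serpins were counted likewise. Of 23 acute-phase and STAT3 genes, 19 passed the test in the knockout, each higher, and 21 rose and 1 fell in wild type, with median log2 differences of 0.86 and 1.71. Jak1, a kinase that activates STAT3, averaged 50.4 TPM in heated and 16.7 TPM in unheated knockout testes (1.53 ± 0.08, adjusted p 4.0e-13), and 107 TPM in heated and 13.8 TPM in unheated wild-type testes (2.87 ± 0.08, adjusted p 3.48e-17). The kinase gene Pim1 rose 1.73-fold in the knockout, and Jak2 7.63-fold in wild type. Of 24 TGF-beta genes, 19 rose and 2 fell in the knockout and 22 rose and 2 fell in wild type, and of 25 interferon-stimulated genes, 23 rose and 2 fell in the knockout and 23 rose and 1 fell in wild type. Of 20 chaperones that are targets of HSF1, the heat shock factor, 9 rose and 7 fell in the knockout and 13 rose and 7 fell in wild type, with median log2 differences of 0.096 and 0.51, so that the knockout counts were near the shares of all rows. For these lists the share of all rows called higher was the 38.5% in the knockout and 45.4% in wild type given above.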

How the data were processed

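RNA of 21 whole-testis samples was sequenced from stranded mRNA libraries, per the labels' protocols. The deposited table holds TPM per gene made by the authors. Reads were aligned with STAR to mm10, per the submitters' processing notes. For the STAR version, the annotation and the tool behind the TPM: not given in the sources used here. TPM keeps no sequencing depth, so counting error is unknown and no count test was run. Rows with a mean of at least 0.2 TPM (24666 of 55573) were analysed as log2(TPM + 1), which understates fold changes of low genes, with limma 3.58.1 (R 4.3.3): 1 model with 4 group means, a trended prior and Benjamini-Hochberg adjustment over all rows, called at 0.05. P-values measure the spread between these samples, which the labels call biological replicates. Groups came from the sample labels. Same-numbered samples did not deviate together throughout and were not treated as paired. Members at 1 TPM or more are named where they passed the test or their groups did not overlap, lower members by group means, and companion lists by counts and, in the heat comparisons, by values of genes from the 2 with the largest t statistic in the majority direction, some lists by counts alone. The members and lists were chosen with earlier results of these data known. 1 member counts in the totals but is not reported here by name. Code was tested on simulated data. Motifs and promoters came from RefSeq (GRCm38.p6), identities from blastn 2.17.0, gene positions from GENCODE M21. Tables and figures used Python 3.11.15, pandas 2.3.3 and matplotlib 3.10.9. Alternatives were a pseudocount of 0.1 TPM, a filter at 1 TPM, no filter, median-of-ratios scaling, quantile normalization, a replicate block, fits of only the groups compared, and leaving out each library.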

Additional observations from a re-analysis of the deposited data

Results flagged for a closer look

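In 8 of 144 groups examined (36 members in 4 groups), 1 library stood far from the rest by Dixon's 95% criterion, and chance alone flags about 1 in 20 groups. Replicate 3 of heated wild type stood above the others of its group for Serpina16 at 154.19 TPM and for Serpina1f at 96.73 TPM. Replicate 6 of the unheated knockout was the highest for Serpina5 at 101.44 TPM. Replicate 5 of the heated knockout was the lowest for Serpinf1 at 25.15 TPM. In the unheated knockout, replicate 4 stood apart for Serpine2 at 1.6 TPM and for Serpina3i at 0.71 TPM, and replicate 3 for Serpina3f at 0.62 TPM. Replicate 3 of unheated wild type stood apart for Serpina1e at 1.21 TPM.

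The heat effect differed between the genotypes for the 27 members below, by the limma test of the difference itself. Knockout minus wild type on the log2 scale, the value was negative for Serpina5 at -1.57, Serpinb6a at -0.18, Serpina3a at -1.84, Serping1 at -1.20, Serpina3g at -0.73, Serpina3n at -1.86, Serpina3c at -0.91, Serpinf1 at -0.88 and Serpinb1a at -0.81. Negative values were also found for Serpinh1 at -0.38, Serpini1 at -0.68, Serpinb6b at -1.55, Serpine2 at -0.88, Serpinb9 at -1.02, Serpina3i at -1.41, Serpina3b at -0.81, Serpina1b at -0.61 and Serpina3h at -0.42. The last were Serpina1d at -0.40, Serpina6 at -0.39, Serpinb8 at -0.51, Serpinb2 at -0.21, Serpina3f at -0.30 and Serpina3m at -0.47. It was positive for Serpinb6c at 0.64, Serpina1a at 0.49 and Serpinc1 at 0.33. The Serpinb2 call (adjusted p 0.0481) was lost on leaving out any of 13 libraries, replicates 3, 4 and 5 of heated knockout, 1 and 3 of heated wild type, 2, 4, 5 and 6 of unheated knockout and 1, 3, 4 and 5 of unheated wild type (limma adjusted p 0.0567 to 0.119; 0.00343 to 0.119 over all alternatives), and with a pseudocount of 0.1 TPM, median-of-ratios scaling or the replicate block. The Serpina3h call (adjusted p 0.0383) was lost without 1 or 5 of heated knockout, 2 or 4 of heated wild type, 3 or 6 of unheated knockout or 2 or 6 of unheated wild type (limma adjusted p 0.0577 to 0.127; 0.00546 to 0.127 over all alternatives), and with a pseudocount of 0.1 TPM, no filter, median-of-ratios scaling or the replicate block. The Serpinb8 call was lost without replicate 4 of heated wild type (limma adjusted p 0.07; 0.00859 to 0.07 over all alternatives), and that of Serpina3f with a pseudocount of 0.1 TPM (limma adjusted p 0.057; 0.00228 to 0.057 over all alternatives). Those of Serpinb6a, Serpinh1 and Serpinc1 are qualified above.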

How the results depend on the processing

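Of the member results recomputed, those of Serpina1f reversed and no others. Its log2 differences were -0.10 (heat in wild type), 0.27 (knockout against wild type after heat) and 0.43 (difference of the heat effects) with a pseudocount of 0.1 TPM, and -0.80, 0.90 and 0.98 without replicate 3 of heated wild type. With 1 library left out, these 3 values lay between -0.80 and 1.37, -1.28 and 0.90, and -1.19 and 0.98, each far end without replicate 4 of heated wild type. With the filter at 1 TPM, which leaves 19 members to test, 15 rose and 1 fell in the heated knockout, 17 rose and 1 fell in heated wild type, 1 was higher and 15 lower in the heated knockout against heated wild type, and 1 heat effect was larger and 16 smaller in the knockout. Serpina16, among the 17, and Serpina1f reach 1 TPM only through replicate 3 of heated wild type (means of 0.182 and 0.838 TPM without it). In the fit with the filter at 0.2 TPM, 41.2% of all rows at 1 TPM or more rose and 41.4% fell in the heated knockout. The shares were 47% and 44.6% in heated wild type. They were 34.4% higher and 48.8% lower in the heated knockout against heated wild type, and 33% and 47.3% for the difference. The 1 member called higher in the knockout without heat became 3 with a pseudocount of 0.1 TPM or the filter at 1 TPM, 4 when only the groups compared were fitted and 0 with quantile normalization. The 2 members higher in the heated knockout became 4 with a pseudocount of 0.1 TPM and 1 with quantile normalization. The cause of these changes was not tested, other than the fewer members tested at 1 TPM. Leaving out 1 library gave 26 to 28 higher and 2 to 3 lower for heat in the knockout, 27 to 29 and 3 to 4 for heat in wild type, 0 to 3 and 0 to 0 for the knockout against wild type without heat, 2 to 3 and 20 to 26 after heat, and 3 to 4 and 22 to 26 for the difference. The replicate block gave 26 higher and 3 lower, 28 and 3, 1 and 0, 3 and 22, and 3 and 23 in the same order. Correlations of same-numbered samples were -0.228 to 0.314. No pair of groups had each of them over 0.1, and the samples were not treated as paired. So few correlations cannot exclude a pairing. TPM without depth limits what can be said of the members under 1 TPM.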
